A study of Homo sapiens and Mus musculus with 24 samples.

Results

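DNMT3A1, the long isoform of the DNA methyltransferase DNMT3A, was put back into Caco-2 cells that had lost the gene, and the RNA of these cells was set against that of the knockout they were made from. The members are the 7 libraries that the genotype labels place in these groups and that have a table of raw counts, 3 of ΔDNMT3A + DNMT3A1 (replicates 1, 2 and 4, called DNMT3A1 below) and 4 of ΔDNMT3A (replicates 1 to 4), of 23 libraries with counts and 24 samples listed in the series. Replicate 3 of DNMT3A1 was not analysed here. All genes were compared, with no choice by measured values.

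The series holds total RNA from Caco-2 cells of 4 genotypes and from the intestinal epithelium of mice, and only the Caco-2 libraries were used. Caco-2 is a human colorectal adenocarcinoma line that takes on features of absorptive enterocytes, such as a brush border and tight junctions. Untreated WT cells (4 libraries) and ΔDNMT3A cells labelled as carrying the short isoform DNMT3A2 (4 libraries) served as points of reference. The comparison of the 7 libraries asks which transcripts differ once the long isoform is expressed in cells without DNMT3A.

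The ΔDNMT3A cells were 1 clonal line made with CRISPR/Cas9, selected by CD4 and diluted to single cells. DNMT3A1 cells descend from that line. They carried TY1-tagged DNMT3A1 behind a CMV promoter in a piggyBac vector with GFP and puromycin resistance, and were again diluted and expanded in puromycin. The sources used here do not say that the ΔDNMT3A control carried an empty vector or was kept in puromycin. The isoform, the vector, the drug and the choice of clone therefore cannot be told apart in any difference below. Nothing states that the replicates of a group were separate clones or cultures, so the p-values measure the spread between these libraries, which may be technical. Depth was similar, with 25923894 to 35336962 reads counted on genes per DNMT3A1 library and 30242279 to 42161299 per ΔDNMT3A library.

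DNMT3A and DNMT3B place methyl groups on cytosines that carried none before, mostly at CG dinucleotides, and DNMT1 copies the pattern after each round of replication. DNMT3A1 differs from DNMT3A2 by a longer amino-terminal region that takes part in its binding to chromatin, and DNMT3A2 starts from a promoter inside the gene. Methylation of a CG-rich promoter usually goes with silence of its gene, while methylation within gene bodies is common in transcribed genes, and in the intestine DNMT3A acts in epithelial renewal and differentiation.

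DNMT3A (ENSG00000119772, chr2:25227855-25342590, minus strand, GRCh38) was higher in every DNMT3A1 library than in any ΔDNMT3A library. It stood at 36.6, 39.03 and 38.3 CPM against 22.3, 20.7, 20.6 and 19.3 CPM (log2 fold change 0.87, SE 0.052, edgeR adjusted p = 1.91e-11). Here and below, values before "against" are DNMT3A1 replicates 1, 2 and 4 and values after it ΔDNMT3A replicates 1 to 4, in CPM, counts per 1000000 counted reads after TMM normalisation. SE is the standard error of the log2 fold change, and edgeR stands for its quasi-likelihood test, with p-values adjusted after Benjamini and Hochberg over every gene tested. WT cells had 64.6 ± 2.27 CPM (SD, n = 4), above all 3 DNMT3A1 libraries. Counts per gene do not separate transcripts of the edited gene from those of the construct. The libraries labelled DNMT3A2 stood at 21.9 ± 1.40 CPM (SD, n = 4), with a mean inside the range of the knockout. The counts therefore do not show added DNMT3A transcripts in these libraries. The study checked both isoforms at the level of protein, by immunoblot and by immunofluorescence, which placed both in the nuclei. Directions against these libraries rest on their label.

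Of the partners, DNMT3B was at 113, 116 and 119.5 CPM against 108, 111, 109 and 105 CPM, a small rise without overlap (log2 fold change 0.10, SE 0.032, edgeR adjusted p = 0.00973) that was lost without DNMT3A1 replicate 4 (log2 fold change 0.08) and with no filter (0.09; highest edgeR adjusted p over the alternatives 0.0889). DNMT1 was at 121, 124 and 111 CPM against 125, 128, 129 and 118 CPM, and the groups overlapped (log2 fold change -0.07, SE 0.039, edgeR adjusted p = 0.118). With a trend of length removed, DNMT1 had a log2 fold change of -0.16 and passed the threshold (edgeR adjusted p = 6.08e-04), as it did with lane as a block and without DNMT3A1 replicate 2 or ΔDNMT3A replicate 4 (-0.08, -0.10 and -0.10). DNMT3L, a relative without catalytic activity that stimulates DNMT3A, rose at a very low level, with 0.985, 1.53 and 1.66 CPM against 0.860, 0.444, 0.574 and 0.631 CPM (log2 fold change 1.12, SE 0.25, edgeR adjusted p = 7.18e-04). Of 19 writers, erasers and readers of DNA methylation, 6 rose and 4 fell (median log2 fold change -0.02), which became 6 and 9 with a trend of length removed and 5 and 6 with a trend of GC content removed. UHRF1, which brings DNMT1 to hemimethylated DNA, fell from 100.7 to 76.0 CPM (log2 fold change -0.41, SE 0.034, edgeR adjusted p = 3.03e-09), and TDG, which excises oxidised methylcytosine, fell from 42.2 to 32.0 CPM (log2 fold change -0.40, SE 0.049, edgeR adjusted p = 5.88e-07). The dioxygenase TET2, which oxidises methylcytosine, rose from 24.997 to 32.6 CPM (log2 fold change 0.38, SE 0.055, edgeR adjusted p = 5.39e-06).

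**Figure D1:**
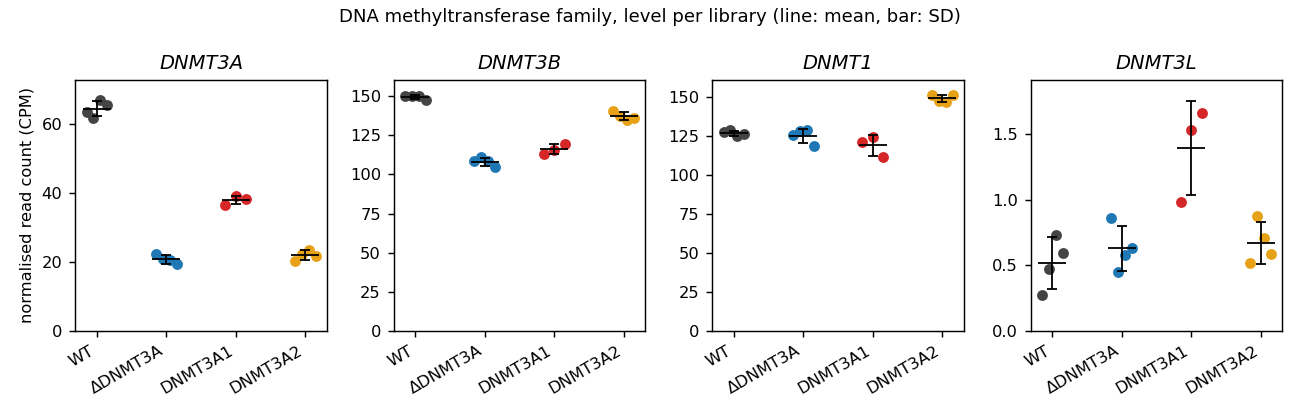
Level of the 4 DNA methyltransferase family genes in each Caco-2 library (points, normalised read count in CPM), with the mean (line) and SD (bar) of each genotype; each panel has its own axis from 0. DNMT3A lies between 36.6 and 39.03 CPM in DNMT3A1 and between 19.3 and 22.3 CPM in ΔDNMT3A.

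Across the transcriptome, most differences were reproducible and small. Of 16860 genes tested, 10231 (60.7%) passed an adjusted p of 0.05 in edgeR, 5127 (30.4%) higher and 5104 (30.3%) lower in DNMT3A1, with a median log2 fold change of 0.01 over all genes. Of the 10231, 6349 had a log2 fold change under 0.5 in size. A change of at least 2-fold was called for 873 genes higher (5.18%) and 530 lower (3.14%). The libraries of the 2 groups did not overlap for 10080 genes (59.8%), 9461 of them called. Protein-coding genes split into 32.4% higher and 35.8% lower (13105 tested), whereas lncRNA genes split into 26.1% higher and 11.2% lower (2326 tested, median log2 fold change 0.15). Counts over lists of genes below are read against the shares over all genes tested, since 3 in 5 genes passed the threshold in any case. A gene very low in either group could pass the filter on low counts only through the other group, which left only that direction open. Among genes named below, this held for the falls of DDX60, CXCL10, COL4A6, GATA5, FOSL1, JAM3, KCNJ16, PCDH7 and ZNF528. It also held for the rises of SLC34A2, HORMAD2 and SSX1. Their directions are descriptions.

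The lane codes of the libraries place replicates 1 and 2 of each genotype in lane 5 and replicates 3 and 4 in lane 6. DNMT3A1, without replicate 3, had only replicate 4 in lane 6. With lane as a block, 10330 genes passed the threshold, 5183 higher and 5147 lower. Of 12 markers of intestinal epithelium, all 12 were tested, and their summed level was 11228 to 11505 CPM in DNMT3A1 and 13305 to 13979 CPM in ΔDNMT3A, with 7 lower and 2 higher. Markers of white blood cells (5 of 12 tested, 1 higher and 3 lower) summed to 35.4 to 37.1 CPM in DNMT3A1 and 44.7 to 51.3 CPM in the knockout. Those of fibroblasts and muscle (6 of 12 tested, 1 higher and 2 lower) summed to 175 to 190.4 and 169 to 182 CPM, and those of endothelium (2 of 9 tested, 1 higher) to 10.4 to 10.9 and 9.26 to 9.65 CPM. Among these, 3, 2 and 4 markers were at 0 in all 7 libraries, respectively.

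Part of the small changes went with position in the genome. On chromosome 14, 405 of 574 tested genes (70.6%) were higher in DNMT3A1 and 36 (6.27%) lower, with a median log2 fold change of 0.41. On chromosome 13, 152 of 280 genes were lower and 33 higher (median -0.24), and on chromosome 5, 384 of 753 were lower and 94 higher (median -0.21). The other chromosomes, 1 to 22 and X, had medians between -0.14 and 0.10. Relative to the mean of the 12 WT, ΔDNMT3A and DNMT3A2-labelled libraries on log2(CPM + 1), the median gene of chromosome 14 stood at 0.41, 0.42 and 0.40 in the 3 DNMT3A1 libraries and between -0.06 and 0.08 in the 12 others. The shift was thus of similar size in each DNMT3A1 library. Chromosome 14 also had a median log2 fold change of 0.54 against the libraries labelled DNMT3A2 and of 0.52 against WT, and of 0.08 in ΔDNMT3A against WT, where the DNMT3A1 and ΔDNMT3A libraries are shared between these comparisons.

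**Figure D2:**
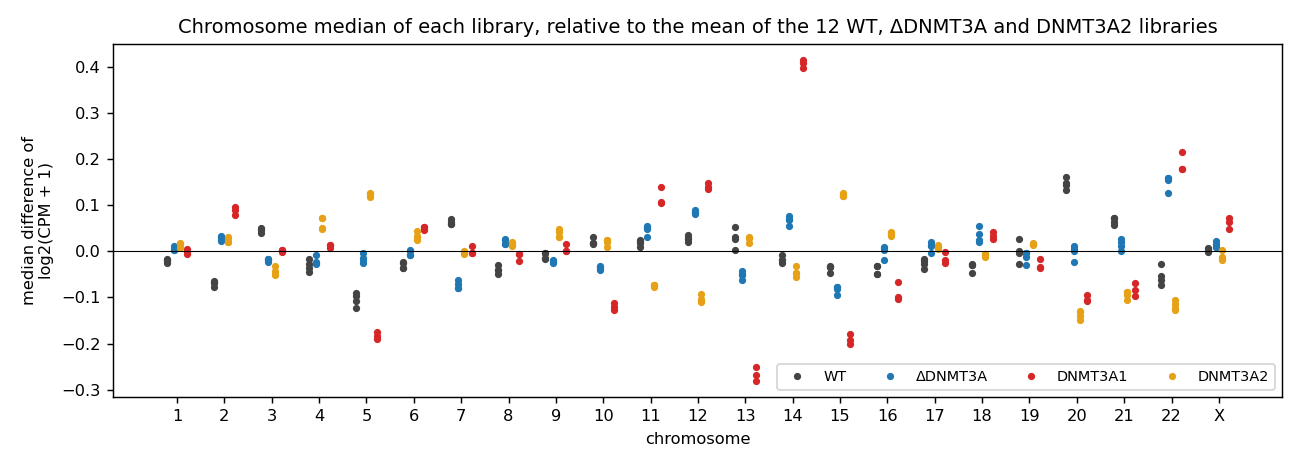
Median difference of log2(CPM + 1) from the mean of the 12 other Caco-2 libraries over the tested genes of each chromosome, one point per library, coloured by genotype. The 3 DNMT3A1 libraries stand at 0.40 to 0.42 on chromosome 14 and at -0.28 to -0.25 on chromosome 13, away from all the others.

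On a finer scale, medians over running windows of 50 neighbouring tested genes lay between -0.24 and 0.31 for the middle 90% of 15692 windows, and those of chromosome 14 ran from -0.06 to 0.64 (median 0.44). The highest window of all was on the long arm of chromosome 11, from 93721513 to 105023168, with 40 of 50 genes higher, 4 lower and a median of 0.65. Another part of chromosome 11, from 7970251 to 14267884, had 36 higher and 7 lower (median 0.48). The lowest window covered the start of chromosome 5, from 92151 to 10761272, where 31 of 50 genes were lower (median -0.51). Further low windows were on chromosome 10 from 12068972 to 23038523 (36 of 50 lower, median -0.48), on chromosome 16 from 67644919 to 69704666 (34 of 50 lower, median -0.47) and on chromosome 13 from 94574051 to 110870251 (32 of 50 lower, median -0.46). DNA of these clones was not analysed here, so the part of gene copy number in these regional shifts was not tested. Without chromosomes 5, 13 and 14, 9127 of 15253 genes passed the threshold, 4595 higher and 4532 lower. For some genes in a shifted region, the median of the 50 genes around them is given below as the neighbour median. Other named genes in such regions are given without it.

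Lists of genes with known roles moved unevenly against the 30.4% and 30.3% of all genes. Interferon-stimulated genes, keratins, S100 and annexin genes, subunits of oxidative phosphorylation, TNF and NF-κB genes and cell cycle genes were mostly lower in DNMT3A1, and secreted hepatic and acute-phase genes, genes of the ATF4 and unfolded protein response and integrins were mostly higher.

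Genes induced by interferons formed the list with the lowest median of all 45. Interferons signal through JAK kinases and STAT proteins, and a complex of STAT proteins with IRF9 switches on antiviral genes through an element called the ISRE. Of 42 such genes, 37 were tested, and 29 fell in DNMT3A1, 18 of them by at least 2-fold, while 3 rose and 5 did not pass the threshold (median log2 fold change -0.94). Without chromosomes 5, 13 and 14, 27 of 35 fell (median -0.92). The 29 include DDX60 and CXCL10, given below, and may include other genes of their kind. These were so low in DNMT3A1 that they could pass the filter on low counts only with the ΔDNMT3A libraries. A fall was therefore the outcome open to them. RNA of a bulk culture does not tell fewer expressing cells from less RNA per cell.

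The promoters of 3 of the genes that fell are printed here, since each holds the ISRE core at 2 places within 250 bases before and 50 bases after its RefSeq start, both strands searched. Capitals mark GAAA, any 2 bases and GAAA again, or the complement with TTTC in place of GAAA. Sequences are 5′ to 3′ on the gene's strand, from RefSeq on GRCh38.p14, at chr14:94110486-94110785, plus strand, at chr10:89392373-89392672, plus strand, and at chr4:168318703-168319002, minus strand, in this order. The RefSeq start of IFI27 lies 5900 bases inside the gene as the count table delimits it.
IFI27: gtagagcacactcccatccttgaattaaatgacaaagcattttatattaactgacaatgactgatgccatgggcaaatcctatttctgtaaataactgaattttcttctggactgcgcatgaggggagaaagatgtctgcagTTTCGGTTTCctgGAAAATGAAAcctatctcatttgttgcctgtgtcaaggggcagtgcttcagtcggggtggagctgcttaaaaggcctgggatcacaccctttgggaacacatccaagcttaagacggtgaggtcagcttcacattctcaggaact
IFIT1: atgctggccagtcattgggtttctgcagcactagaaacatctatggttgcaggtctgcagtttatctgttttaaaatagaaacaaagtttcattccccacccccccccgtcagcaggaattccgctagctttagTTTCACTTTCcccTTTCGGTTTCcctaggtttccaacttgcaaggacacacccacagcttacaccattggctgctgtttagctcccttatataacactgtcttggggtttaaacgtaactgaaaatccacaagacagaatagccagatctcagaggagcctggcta
DDX60: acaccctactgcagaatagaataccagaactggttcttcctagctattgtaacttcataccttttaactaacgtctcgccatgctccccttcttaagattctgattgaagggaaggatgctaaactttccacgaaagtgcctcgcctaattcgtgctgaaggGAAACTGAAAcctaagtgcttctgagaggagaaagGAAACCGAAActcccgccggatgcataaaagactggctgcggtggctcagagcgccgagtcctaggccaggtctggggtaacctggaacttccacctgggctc
These letters occurred in 22 of the 30 tested interferon-stimulated genes with a promoter sequence (73.3%) and in 19 of the 26 that fell (73.1%). They occurred in 288 of the 10708 distinct promoters of tested coding genes (2.69%) and in 996 of all 27305 promoters in the table (3.65%). A match describes the window and not a bound site.

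IFI27, a mitochondrial protein induced by type I interferon, had the largest change of the list. It stood at 0.624, 0.804 and 0.816 CPM against 15.9, 15.8, 17.9 and 15.5 CPM, without overlap (log2 fold change -4.43, SE 0.12, edgeR adjusted p = 7.45e-17). Its surroundings on chromosome 14 went the other way, with a neighbour median of 0.47. IFI6, its relative, was at 7.09, 7.58 and 6.76 CPM against 36.1, 36.8, 38.3 and 34.3 CPM (log2 fold change -2.35, SE 0.061, edgeR adjusted p = 5.67e-17). IFIT1, which binds RNA lacking the host's cap methylation, was at 1.84, 0.918 and 2.36 CPM against 9.36, 9.44, 11.7 and 9.93 CPM (log2 fold change -2.503, SE 0.16, edgeR adjusted p = 5.56e-11). DDX60, a helicase of the same response, was at 0.197, 0.0765 and 0.0845 CPM against 1.43, 1.51, 1.49 and 1.79 CPM (log2 fold change -3.65, SE 0.32, edgeR adjusted p = 6.61e-09). In each of these genes, every DNMT3A1 library was below every ΔDNMT3A library. CXCL10, a chemokine that draws T cells, was at 0.164, 0.191 and 0.169 CPM against 1.55, 1.81, 1.39 and 1.79 CPM (log2 fold change -3.204, SE 0.28, edgeR adjusted p = 5.75e-09). ISG15, a ubiquitin-like modifier, was at 5.15, 5.05 and 5.80 CPM against 12.9, 13.8, 14.9 and 14.9 CPM (log2 fold change -1.39, SE 0.081, edgeR adjusted p = 1.33e-11).

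The ubiquitin ligases HERC5 and HERC6, neighbours on chromosome 4, were among the 3 that rose. HERC6 was at 12.7, 12.9 and 13.3 CPM against 7.95, 7.34, 7.94 and 8.04 CPM (log2 fold change 0.73, SE 0.067, edgeR adjusted p = 1.01e-08) and HERC5 at 13.7, 13.6 and 13.4 CPM against 9.62, 9.47, 8.48 and 9.70 CPM (log2 fold change 0.54, SE 0.066, edgeR adjusted p = 6.10e-07). WT had 4.02 ± 0.412 CPM and 2.21 ± 0.253 CPM (SD, n = 4) and cells labelled DNMT3A2 had 1.81 ± 0.121 CPM and 0.828 ± 0.242 CPM, so both genes were highest in DNMT3A1. Genes of the signalling pathway itself moved less. Of 20 receptors, JAK, STAT and IRF genes, 9 fell and 3 rose (median -0.12). Interferon gamma receptor IFNGR1 fell from 174 to 92.4 CPM (log2 fold change -0.91, SE 0.037, edgeR adjusted p = 5.86e-14), and IRF1 from 24.4 to 17.1 CPM (log2 fold change -0.51, SE 0.054, edgeR adjusted p = 9.13e-08). Among 9 tested sensors of cytosolic nucleic acid, 4 fell and 3 rose (1 rose with a trend of length removed), and IFIH1, which detects long double-stranded RNA, fell from 10.3 to 2.68 CPM (log2 fold change -1.94, SE 0.095, edgeR adjusted p = 8.97e-13).

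**Figure D3:**
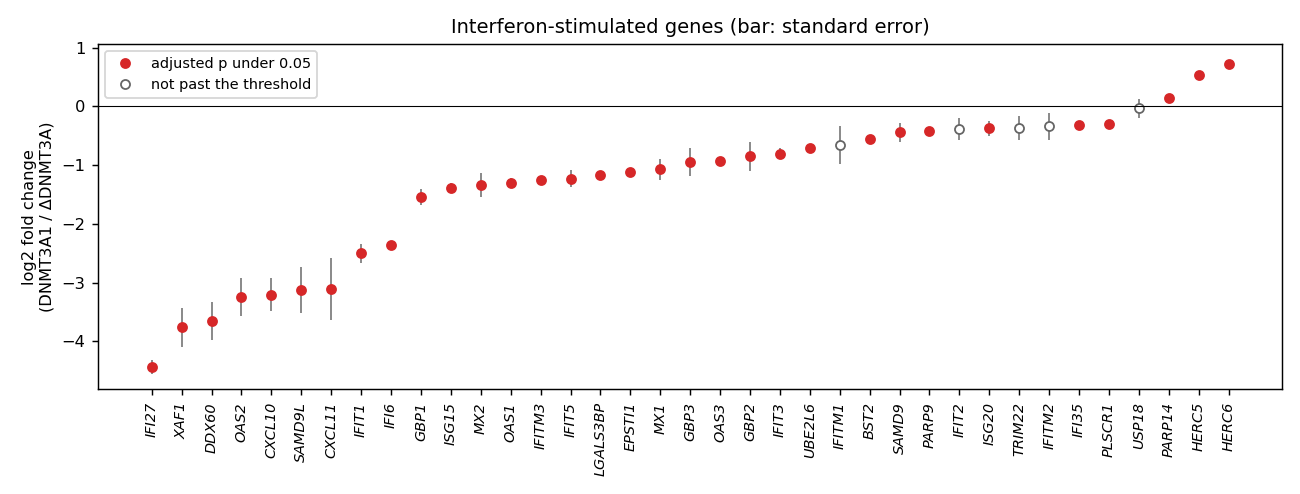
Log2 fold change of DNMT3A1 against ΔDNMT3A for the 37 tested interferon-stimulated genes, ordered by size, with the standard error (bar); filled points passed an adjusted p of 0.05. The values run from -4.43 for IFI27 to 0.73 for HERC6.

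The interferon genes were also set beside the other genotypes. Against WT, 21 of 35 tested members were lower in DNMT3A1 and 5 higher (median log2 fold change -0.66). Of all genes in that comparison, 65.3% were called, 32.7% lower and 32.6% higher. In ΔDNMT3A against WT, 20 of 37 were higher and 8 lower (median 0.34), where 62.2% of all genes were called, 31.2% higher and 31% lower. These comparisons share the DNMT3A1 and ΔDNMT3A libraries with the main one. IFI27 had 3.83 ± 0.445 CPM in WT and IFI6 25.9 ± 1.51 CPM (SD, n = 4), above DNMT3A1 and below the knockout, while IFIT1 had 10.96 ± 0.847 CPM, within the range of the knockout. Against the libraries labelled DNMT3A2, in which 68.5% of all genes were called, 34.5% higher and 33.9% lower, 22 of 30 members were higher in DNMT3A1 and 4 lower (median 0.79). IFI6 was at 2.80 ± 0.144 CPM there (log2 fold change 1.34, SE 0.10, edgeR adjusted p = 1.13e-11 for DNMT3A1 against DNMT3A2-labelled).

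Interferon gamma induces the presentation of peptides by MHC class I through NLRC5, and its 15 tested genes split, 9 lower and 6 higher (median -0.34). The lower members were the immunoproteasome subunits PSMB8 and PSMB10 and the peptide transporters TAP1 and TAP2 with their partner TAPBP. The trimming peptidases ERAP1 and ERAP2, NLRC5 and B2M were also lower. ERAP1 and ERAP2 lie on chromosome 5, and without the 3 shifted chromosomes 7 of 13 members were lower and 6 higher (median -0.34). PSMB10 (log2 fold change -1.51) lies in the low window of chromosome 16, with a median of -0.47. NLRC5 lies in another low window there, of 25 genes, from 56361452 to 57487327 (median -0.46). PSMB8, a catalytic subunit of the immunoproteasome, was at 0.722, 0.651 and 0.366 CPM against 3.08, 3.02, 3.14 and 2.82 CPM (log2 fold change -2.41, SE 0.20, edgeR adjusted p = 2.85e-09). NLRC5, the transactivator, was at 0.394, 0.497 and 0.422 CPM against 2.05, 1.98, 1.86 and 2.09 CPM (log2 fold change -2.19, SE 0.21, edgeR adjusted p = 2.18e-08). TAP1, a subunit of the peptide transporter, was at 2.92, 2.95 and 2.70 CPM against 7.14, 6.21, 8.14 and 6.71 CPM (log2 fold change -1.30, SE 0.11, edgeR adjusted p = 4.67e-09). All 3 were low transcripts with separate groups. The light chain B2M fell from 210.3 to 132 CPM (log2 fold change -0.67, SE 0.034, edgeR adjusted p = 1.63e-12), but the heavy chain HLA-B rose from 22.01 to 31.4 CPM (log2 fold change 0.52, SE 0.05, edgeR adjusted p = 2.47e-08). Reads can be split between the similar HLA genes in counting, so the value of HLA-B is uncertain.

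TNF and NF-κB genes also leaned lower, with 12 of 20 tested lower and 4 higher (median -0.33). BIRC3, an inhibitor of TNF-induced cell death and a target of NF-κB, was at 8.44, 8.61 and 8.42 CPM against 16.4, 17.5, 14.6 and 14.1 CPM (log2 fold change -0.89, SE 0.077, edgeR adjusted p = 5.20e-09), in a part of chromosome 11 whose neighbour median was 0.54. The chemokine CCL20 was the member with the largest rise, from 0.843 to 2.42 CPM (log2 fold change 1.46, SE 0.23, edgeR adjusted p = 1.52e-05).

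Secreted proteins of the liver type had the highest median of the lists with at least 10 tested members. Of 21 tested acute-phase, complement and hepatic secreted genes, 14 rose, 8 of them by at least 2-fold, and 4 fell (median log2 fold change 0.75), and without the 3 shifted chromosomes 12 of 19 rose (median 0.69). ITIH2, a heavy chain of the inter-alpha-trypsin inhibitor that binds hyaluronan, was at 92.6, 89.1 and 94.3 CPM against 5.99, 6.54, 6.86 and 7.07 CPM (log2 fold change 3.81, SE 0.056, edgeR adjusted p = 3.80e-20). Its neighbour median on chromosome 10 was -0.41, in the opposite direction. Complement C5 was at 68.6, 63.0 and 62.1 CPM against 10.4, 12.6, 11.4 and 12.2 CPM (log2 fold change 2.47, SE 0.06, edgeR adjusted p = 2.70e-17). Albumin, encoded by ALB, was at 45.2, 41.3 and 61.1 CPM against 8.09, 8.58, 7.74 and 8.30 CPM (log2 fold change 2.60, SE 0.10, edgeR adjusted p = 2.40e-14). All DNMT3A1 libraries were above all ΔDNMT3A libraries for both, and replicate 4 was the highest for ALB. C5 had 9.67 ± 0.148 CPM in WT and 10.9 ± 0.824 CPM in the libraries labelled DNMT3A2 (SD, n = 4).

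The fibrinogen genes lie side by side on chromosome 4 and encode the chains of the clotting protein. FGG was at 529, 494 and 604 CPM against 207, 187, 212 and 234 CPM (log2 fold change 1.37, SE 0.06, edgeR adjusted p = 1.82e-13). FGA was at 472, 448 and 563 CPM against 204, 179, 202 and 232 CPM (log2 fold change 1.28, SE 0.068, edgeR adjusted p = 3.62e-12). FGB moved less, with 49.1, 46.3 and 59.1 CPM against 39.7, 37.5, 41.05 and 45.2 CPM (log2 fold change 0.34, SE 0.071, edgeR adjusted p = 3.22e-04). All 3 rose without overlap, and without DNMT3A1 replicate 4 the log2 fold change of FGB was 0.22. Against the libraries labelled DNMT3A2, the log2 fold changes were 3.31, 3.18 and 1.36 for FGG, FGA and FGB (edgeR adjusted p = 3.33e-26, 1.81e-24 and 7.82e-15). On chromosome 14, the protease inhibitors SERPINA1 and SERPINA4 rose, by 0.99 and 3.12 on the log2 scale, above a neighbour median of 0.43 for both. SERPINA4, kallistatin, was at 31.8, 30.2 and 32.7 CPM against 3.06, 3.79, 3.85 and 3.95 CPM (log2 fold change 3.12, SE 0.072, edgeR adjusted p = 1.22e-17). Transthyretin, encoded by TTR, rose from 125 to 256 CPM (log2 fold change 1.04, SE 0.031, edgeR adjusted p = 5.56e-16). Vitronectin (VTN) went the other way, at 650.4, 643 and 654 CPM against 1279, 1288, 1347 and 1222 CPM (log2 fold change -0.98, SE 0.035, edgeR adjusted p = 6.25e-15), as did the complement regulator CFI, which fell from 1.85 to 0.674 CPM (log2 fold change -1.46, SE 0.24, edgeR adjusted p = 3.02e-05).

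Apolipoproteins and genes of lipid absorption divided evenly, 8 higher and 8 lower of 21 tested. APOA1 and APOA4 are neighbours on chromosome 11 that moved apart. APOA1, the main protein of high-density lipoprotein, was at 533, 523 and 662 CPM against 342, 305, 352 and 348 CPM (log2 fold change 0.77, SE 0.061, edgeR adjusted p = 1.32e-09). APOA4, which enterocytes secrete with fat, was at 4.33, 4.32 and 9.26 CPM against 25.9, 22.1, 26.2 and 30.8 CPM (log2 fold change -2.09, SE 0.16, edgeR adjusted p = 1.12e-09), with replicate 4 the highest of the DNMT3A1 libraries for both.

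Brush border genes, the enzymes and scaffold of the enterocyte's apical surface, showed large changes both ways. Of 25 tested, 8 rose and 9 fell, 4 each by at least 2-fold (median -0.09). The metalloprotease meprin A, encoded by MEP1A (ENSG00000112818, chr6:46793390-46839782), was at 245, 229 and 250.3 CPM against 48.2, 46.3, 52.03 and 54.7 CPM (log2 fold change 2.27, SE 0.045, edgeR adjusted p = 1.08e-18). DPP4, the dipeptidyl peptidase that inactivates incretins, was at 1335, 1316 and 1319 CPM against 523, 541, 550.4 and 562 CPM (log2 fold change 1.28, SE 0.032, edgeR adjusted p = 3.17e-17). Sucrase-isomaltase, SI, was at 52.8, 48.7 and 65.1 CPM against 12.1, 11.99, 13.6 and 16.04 CPM (log2 fold change 2.06, SE 0.091, edgeR adjusted p = 1.99e-13). All DNMT3A1 libraries were above all ΔDNMT3A libraries in these. Lactase, LCT, was at 4.46, 4.67 and 6.39 CPM against 26.1, 25.5, 26.0 and 27.2 CPM (log2 fold change -2.32, SE 0.084, edgeR adjusted p = 8.90e-15). Aminopeptidase N, ANPEP, was at 3.91, 4.44 and 4.79 CPM against 12.2, 11.1, 12.6 and 12.9 CPM (log2 fold change -1.47, SE 0.088, edgeR adjusted p = 1.90e-11). Both were lower in every DNMT3A1 library. Villin, VIL1, the actin bundler of microvilli, changed little, with 626, 621 and 603 CPM against 654, 646, 666 and 651 CPM (log2 fold change -0.09, SE 0.03, edgeR adjusted p = 0.0178). Against the libraries labelled DNMT3A2, 19 of 24 brush border genes were higher in DNMT3A1 and 4 lower (median 1.06, with 34.5% of all genes higher and 33.9% lower), and LCT was among those higher (log2 fold change 2.74, SE 0.18, edgeR adjusted p = 9.38e-13).

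Of 30 tested nutrient and ion transporters, 9 rose and 15 fell (median -0.16). SLC5A1, the sodium-glucose cotransporter of the small intestine, was at 0.755, 1.07 and 1.10 CPM against 11.2, 11.4, 12.4 and 13.3 CPM (log2 fold change -3.61, SE 0.13, edgeR adjusted p = 5.80e-15). WT cells had 1.71 ± 0.300 CPM (SD, n = 4), nearer to DNMT3A1 than to the knockout. The fructose transporter SLC2A5 was at 0.689, 0.765 and 5.72 CPM against 11.2, 9.03, 12.8 and 14.6 CPM (log2 fold change -2.19, SE 0.34, edgeR adjusted p = 1.59e-05). Replicate 4 stood far above the other DNMT3A1 libraries, and without it the log2 fold change was -4.03. CFTR, the chloride channel of crypts, was at 309, 309 and 299.8 CPM against 127, 126, 128 and 129.6 CPM (log2 fold change 1.26, SE 0.029, edgeR adjusted p = 8.48e-18), and the phosphate transporter SLC34A2 at 3.05, 3.56 and 3.27 CPM against 0.334, 0.207, 0.236 and 0.299 CPM (log2 fold change 3.57, SE 0.21, edgeR adjusted p = 1.19e-11). CFTR had 202 ± 4.52 CPM in WT (SD, n = 4), lower than in DNMT3A1 (edgeR adjusted p = 3.92e-15).

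Matrix genes were near balance as a list, 13 higher and 11 lower of 28 tested (median 0.00), but 6 members fell by at least 2-fold. COL4A5 and COL4A6, chains of basement membrane collagen, start head to head from a shared region of the X chromosome, and both fell. COL4A5 was at 0.591, 0.574 and 0.563 CPM against 4.63, 5.77, 5.20 and 4.91 CPM (log2 fold change -3.14, SE 0.17, edgeR adjusted p = 2.78e-12). COL4A6 was at 0.230, 0.191 and 0.0563 CPM against 2.27, 2.84, 2.70 and 2.59 CPM (log2 fold change -4.05, SE 0.29, edgeR adjusted p = 2.55e-10). WT cells had 85.9 ± 3.55 CPM and 50.3 ± 1.04 CPM (SD, n = 4), and 39.8 ± 0.784 CPM and 19.9 ± 0.931 CPM (SD, n = 4) were found in those labelled DNMT3A2, so the DNMT3A1 libraries were the lowest for each. Against DNMT3A2-labelled cells, the log2 fold changes were -6.10 and -6.99 (edgeR adjusted p = 5.34e-26 and 1.89e-22). COL4A1, a chain of the common basement membrane collagen, was at 10.9, 10.8 and 11.5 CPM against 29.9, 33.9, 32.5 and 32.1 CPM (log2 fold change -1.53, SE 0.057, edgeR adjusted p = 1.40e-14), on chromosome 13 with a neighbour median of -0.22. Tenascin-C (TNC), a matrix glycoprotein of wounds and tumours, was at 19.7, 19.6 and 17.5 CPM against 159.8, 165, 147 and 144 CPM (log2 fold change -3.03, SE 0.056, edgeR adjusted p = 5.95e-19).

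Fibronectin, FN1, rose from 3974 to 7123 CPM (log2 fold change 0.84, SE 0.051, edgeR adjusted p = 2.60e-11). Of 13 tested integrins, receptors for matrix proteins, 8 rose and 3 fell (median 0.22), none by 2-fold. Metalloproteinases and their inhibitors split into 6 higher and 5 lower of 12. The collagenase MMP1 was at 112, 113 and 116 CPM against 71.2, 66.9, 65.9 and 67.1 CPM (log2 fold change 0.74, SE 0.035, edgeR adjusted p = 5.85e-13). MMP7, matrilysin, was at 1.15, 1.22 and 1.38 CPM against 3.797, 3.26, 4.02 and 3.02 CPM (log2 fold change -1.49, SE 0.16, edgeR adjusted p = 9.20e-08), both in the high window of chromosome 11, with neighbour medians of 0.53 and 0.54. MMP7 thus fell where its neighbours rose.

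Genes of claudins and tight junctions leaned lower. Of 26 tested, 13 fell and 7 rose (median -0.13), where 30.3% of all genes were lower and 30.4% higher. CLDN2, which forms a pore for cations, was at 20.1, 18.7 and 17.4 CPM against 57.6, 56.7, 56.2 and 53.1 CPM (log2 fold change -1.58, SE 0.055, edgeR adjusted p = 4.49e-15), whereas CLDN1, a sealing claudin, was at 55.7, 59.1 and 56.6 CPM against 31.3, 32.5, 33.5 and 29.9 CPM (log2 fold change 0.85, SE 0.048, edgeR adjusted p = 8.91e-12). The adhesion molecule JAM3 had no read in any of the 3 DNMT3A1 libraries and 0.334, 0.296, 0.338 and 0.399 CPM in the ΔDNMT3A libraries. Against a floor of 3 counts per library it was at least 3.44-fold lower (edgeR adjusted p = 4.24e-06). E-cadherin, CDH1, was at 594, 587 and 593 CPM against 795, 813, 812 and 814 CPM (log2 fold change -0.45, SE 0.029, edgeR adjusted p = 6.45e-11), in the low window of chromosome 16 with a neighbour median of -0.32.

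S100 and annexin genes, which encode calcium-binding proteins, fell in 16 of 21 cases and rose in 2 (median -0.35), 7 of them by at least 2-fold. S100A14 (ENSG00000189334, chr1:153614255-153616986) was at 173, 172 and 185 CPM against 538, 529.9, 553 and 512 CPM (log2 fold change -1.59, SE 0.036, edgeR adjusted p = 8.48e-18). Its neighbour in the S100 cluster of chromosome 1, S100A6, was at 60.7, 61.5 and 64.2 CPM against 199, 196, 202 and 192 CPM (log2 fold change -1.66, SE 0.033, edgeR adjusted p = 1.29e-18). Both lie in a low window of 25 genes, from 151540516 to 153634340, with 15 lower and 4 higher (median -0.53). That window holds S100 genes itself, and its median was 0.46 in ΔDNMT3A against WT. S100P, on chromosome 4, rose from 2.03 to 6.06 CPM (log2 fold change 1.598, SE 0.13, edgeR adjusted p = 2.35e-09). In ΔDNMT3A against WT, 16 of the 21 were higher and 3 lower (median 0.74, with 31.2% of all genes higher and 31% lower), with the ΔDNMT3A libraries shared. Keratins fell in 7 of 11 and rose in 2 (median -0.36). KRT20, the keratin of mature surface enterocytes, was at 1.35, 2.14 and 1.97 CPM against 16.7, 17.3, 14.6 and 15.6 CPM (log2 fold change -3.15, SE 0.11, edgeR adjusted p = 6.59e-15), and WT had 1.03 ± 0.320 CPM (SD, n = 4). KRT8, the main keratin of simple epithelia, was at 3664, 3677 and 3763 CPM against 4672, 4685, 4940.0 and 4527 CPM (log2 fold change -0.35, SE 0.038, edgeR adjusted p = 1.58e-07).

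Pathways used by most cells showed small changes. Oxidative phosphorylation subunits, the nuclear-encoded parts of the respiratory chain and ATP synthase, fell in 35 of 38 and the other 3 did not pass the threshold (median log2 fold change -0.35), with values from -0.83 to 0.24. The median stayed between -0.39 and -0.32 in the alternative fits, and without chromosomes 5, 13 and 14 it was -0.32, with 31 of 34 lower. UQCRQ of complex III was at 105, 103 and 113 CPM against 196, 186, 195 and 182 CPM (log2 fold change -0.83, SE 0.037, edgeR adjusted p = 2.92e-13), and SDHA of complex II at 140.1, 141 and 139 CPM against 219.7, 222, 226 and 206 CPM (log2 fold change -0.64, SE 0.034, edgeR adjusted p = 2.60e-12), both on chromosome 5, with neighbour medians of -0.22 and -0.49. In ΔDNMT3A against WT, 20 of these 38 were higher and 5 lower (median 0.08, with 31.2% and 31% over all genes).

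Cell cycle and DNA replication genes fell in 31 of 41 cases and rose in 2 (median -0.22), none by 2-fold. MYBL2, a transcription factor of the late cell cycle, had the lowest value, at 156, 148 and 143 CPM against 254, 257, 279 and 240.5 CPM (log2 fold change -0.79, SE 0.042, edgeR adjusted p = 3.65e-12). CDK1, the mitotic kinase, was at 308, 303 and 321 CPM against 443, 439.9, 448 and 448 CPM (log2 fold change -0.52, SE 0.03, edgeR adjusted p = 1.29e-11), whereas the kinetochore protein CENPF rose from 288 to 379.9 CPM (log2 fold change 0.40, SE 0.043, edgeR adjusted p = 1.12e-07). The part of growth rate or density of the cultures was not tested.

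Genes of the ATF4 and unfolded protein response, which supply amino acids and chaperones under stress, rose in 18 of 23 cases and fell in 2 (median 0.33). ASNS, asparagine synthetase and a target of ATF4, was at 469, 447 and 438 CPM against 239, 249.9, 262 and 255 CPM (log2 fold change 0.84, SE 0.034, edgeR adjusted p = 4.93e-14). ATF4 itself rose from 589 to 710.1 CPM (log2 fold change 0.27, SE 0.032, edgeR adjusted p = 3.40e-07), and the chaperone HSP90B1 from 1348 to 1897 CPM (log2 fold change 0.49, SE 0.034, edgeR adjusted p = 1.60e-10). Immediate early and heat shock genes leaned the other way, with 15 of 25 lower and 4 higher (median -0.25). The immediate early genes FOS and EGR1 were among the 4 that rose, with the heat shock genes HSPB1 and HSPA5. FOS had the largest rise (log2 fold change 1.24), the only one of at least 2-fold. JUN, JUND and ATF3 were among those that fell. Without the shifted chromosomes, 12 of 20 were lower and 2 higher (median -0.25). The AP-1 subunit FOSL1 fell from 1.14 to 0.242 CPM (log2 fold change -2.19, SE 0.31, edgeR adjusted p = 3.55e-06).

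Wnt signalling keeps intestinal stem cells dividing, and its genes moved both ways, with 19 higher and 14 lower of 40 tested (median 0.16). LGR5, the stem cell receptor for R-spondin, was at 18.9, 19.6 and 17.4 CPM against 6.28, 7.01, 6.62 and 6.24 CPM (log2 fold change 1.51, SE 0.069, edgeR adjusted p = 2.96e-13). EPHB3, which positions cells along the crypt, was at 31.7, 30.001 and 31.0 CPM against 7.57, 8.70, 9.32 and 8.87 CPM (log2 fold change 1.85, SE 0.061, edgeR adjusted p = 2.22e-15). CD44, a hyaluronan receptor, was at 119.5, 117.1 and 106 CPM against 39.8, 43.1, 40.9 and 38.99 CPM (log2 fold change 1.49, SE 0.046, edgeR adjusted p = 7.80e-16). Of these, LGR5 remained below the 34.7 ± 2.12 CPM of WT (SD, n = 4), whereas EPHB3 and CD44 had 6.80 ± 0.851 CPM and 35.6 ± 0.604 CPM there (SD, n = 4). AXIN2, a target that feeds back on the pathway, fell, with 35.6, 37.7 and 36.5 CPM against 47.4, 47.8, 47.6 and 45.9 CPM (log2 fold change -0.37, SE 0.045, edgeR adjusted p = 6.25e-07), and so did CCND1, cyclin D1, with 239, 242 and 229 CPM against 364, 375, 376 and 347 CPM (log2 fold change -0.63, SE 0.034, edgeR adjusted p = 4.26e-12). Both were also lower than in the libraries labelled DNMT3A2 (-1.35 and -0.98 on the log2 scale, edgeR adjusted p = 4.26e-21 and 1.34e-20).

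Notch genes gave 5 higher and 6 lower of 20 (median -0.04), with NOTCH3 the largest rise, from 16.6 to 36.4 CPM (log2 fold change 1.13, SE 0.06, edgeR adjusted p = 2.83e-12). Genes of TGF-β and BMP signalling gave 10 higher and 12 lower of 26 (median -0.07). INHBB, a subunit of activin and inhibin, rose from 2.93 to 11.95 CPM (log2 fold change 2.01, SE 0.093, edgeR adjusted p = 3.64e-13). Of 25 tested transcription factors of intestinal lineages, 9 rose and 8 fell (median -0.02). SOX2, a factor of the foregut and of stem cells, was at 84.6, 85.8 and 83.4 CPM against 35.3, 36.3, 37.1 and 36.6 CPM (log2 fold change 1.22, SE 0.04, edgeR adjusted p = 1.66e-15). GATA5, a factor of endoderm and heart, was at 0.230, 0.344 and 0.282 CPM against 1.98, 1.54, 1.76 and 2.03 CPM (log2 fold change -2.68, SE 0.25, edgeR adjusted p = 1.45e-08). CDX2, the factor that sets intestinal identity, was at 89.8, 85.9 and 93.9 CPM against 89.6, 86.8, 97.8 and 90.9 CPM, with overlap (log2 fold change -0.02, SE 0.041, edgeR adjusted p = 0.708).

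The largest rises among coding genes of at least 5 CPM were in genes of varied function. VGLL1, a cofactor of TEAD transcription factors, had the highest of these, at 8.27, 9.95 and 6.64 CPM against 0.382, 0.414, 0.236 and 0.399 CPM (log2 fold change 4.49, SE 0.19, edgeR adjusted p = 1.03e-13). PLA2G7, the phospholipase that inactivates platelet-activating factor, was at 21.5, 19.1 and 19.6 CPM against 1.55, 1.51, 1.39 and 1.39 CPM (log2 fold change 3.77, SE 0.088, edgeR adjusted p = 1.44e-17). SPTSSB, a small subunit of serine palmitoyltransferase, was at 36.3, 38.4 and 41.02 CPM against 3.46, 3.91, 4.02 and 3.22 CPM (log2 fold change 3.40, SE 0.07, edgeR adjusted p = 1.78e-18). These genes were chosen among those whose groups did not overlap, so their separation is a description. NIBAN1, GADL1, CALHM4, ACSL1 and PRSS1 rose by 3.38, 3.31, 3.16, 3.12 and 3.04 on the log2 scale (edgeR adjusted p at most 1.10e-12). ACSL1, which activates long-chain fatty acids, was at 43.9, 44.3 and 45.8 CPM against 4.85, 4.91, 5.78 and 5.15 CPM, but 93.6 ± 1.80 CPM (SD, n = 4) in the libraries labelled DNMT3A2. On chromosome 14, the kinase gene PRKCH was at 13.1, 13.3 and 12.4 CPM against 1.41, 1.51, 1.15 and 1.53 CPM (log2 fold change 3.198, SE 0.10, edgeR adjusted p = 1.08e-15), and the ubiquitin ligase gene PELI2 at 19.99, 18.5 and 19.8 CPM against 2.32, 2.90, 2.13 and 1.83 CPM (log2 fold change 3.08, SE 0.10, edgeR adjusted p = 8.62e-16), far above their neighbour medians of 0.52 and 0.39.

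Among coding genes of at least 5 CPM in the higher group, INMT, a methyltransferase of indoleamines, had the lowest log2 fold change. It was at 0.591, 0.497 and 0.338 CPM against 13.7, 14.6, 12.8 and 12.3 CPM (log2 fold change -4.83, SE 0.14, edgeR adjusted p = 5.02e-16). BAAT, which joins bile acids to amino acids, was at 0.853, 0.727 and 0.619 CPM against 9.26, 9.29, 9.93 and 9.60 CPM (log2 fold change -3.70, SE 0.13, edgeR adjusted p = 3.95e-15). B4GALNT2, which makes the Sda blood group glycan of the colon, was at 4.005, 4.02 and 4.08 CPM against 48.8, 48.8, 51.9 and 56.0 CPM (log2 fold change -3.67, SE 0.072, edgeR adjusted p = 1.08e-18). Each was lower in all 3 DNMT3A1 libraries, which the choice of genes without overlap between the groups fixed in advance. PLB1, an intestinal phospholipase B, was at 8.01, 7.96 and 9.32 CPM against 102, 102, 99.8 and 94.7 CPM (log2 fold change -3.56, SE 0.059, edgeR adjusted p = 1.10e-19). CPN2, a subunit of carboxypeptidase N, was at 0.689, 0.459 and 0.676 CPM against 10.4, 9.77, 12.4 and 10.99 CPM (log2 fold change -4.12, SE 0.15, edgeR adjusted p = 6.98e-15). WT was near DNMT3A1 for CPN2 (0.681 ± 0.0343 CPM, SD, n = 4), but near the knockout for INMT (12.05 ± 0.763 CPM). The dopamine receptor gene DRD2 had a log2 fold change of -3.63 and LRRN4 of -3.09 (edgeR adjusted p = 5.59e-15 and 8.87e-16).

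Among abundant transcripts, DPP4, GPC3, NAALAD2, FGG and FGA led those that rose by at least 2-fold, and FLNC, PRSS23, S100A14, ALDH1A1, HSD3B1 and COTL1 those that fell. GPC3, glypican 3 of the cell surface, was at 598, 558 and 581 CPM against 272, 261, 296 and 273 CPM (log2 fold change 1.07, SE 0.037, edgeR adjusted p = 4.89e-15), and NAALAD2, a peptidase on chromosome 11 with a neighbour median of 0.33, at 634, 600.2 and 619 CPM against 213, 210.2, 217 and 225 CPM (log2 fold change 1.52, SE 0.032, edgeR adjusted p = 2.43e-18). HSD3B1, an enzyme of steroid synthesis, was at 72.7, 70.4 and 81.3 CPM against 349.5, 343, 359 and 374 CPM (log2 fold change -2.25, SE 0.044, edgeR adjusted p = 1.08e-18). The groups were separate for all 3. ALDH1A1, which makes retinoic acid, was at 152, 137 and 151 CPM against 309, 313, 319 and 322 CPM (log2 fold change -1.10, SE 0.035, edgeR adjusted p = 1.39e-15). FLNC, a filamin that cross-links actin, was at 279, 309 and 246 CPM against 606, 657, 615 and 562 CPM (log2 fold change -1.13, SE 0.058, edgeR adjusted p = 1.66e-12). The serine protease gene PRSS23 had a log2 fold change of -1.17 and COTL1, which binds actin, of -1.29 (edgeR adjusted p = 2.47e-16 and 4.42e-17).

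DNMT3A1 libraries stood outside the range of all 12 other Caco-2 libraries for many genes. Of 17764 genes tested over all 15 libraries, 2340 (13.2%) were above and 2173 (12.2%) below all 12, whereas the 4 libraries labelled DNMT3A2 were above all others for 2556 and below for 2359. The 4 ΔDNMT3A libraries were above all others for 1440 and below for 1217, and the 4 WT libraries for 1761 and 1572. With 3 libraries, DNMT3A1 can lie outside the range of the rest more easily than a group of 4. The widest gaps above were in SPTSSB, C5, MEP1A, TNFRSF11B and KLHL3. TNFRSF11B, the decoy receptor osteoprotegerin, was at 24.2, 22.3 and 23.5 CPM against 4.39, 5.09, 4.19 and 4.18 CPM, and KLHL3, an adaptor of a ubiquitin ligase, at 14.8, 17.1 and 15.8 CPM against 2.58, 2.43, 2.40 and 2.99 CPM. The widest gaps below were in COL4A5, KCNJ16, PDZRN3, COL4A6 and PCDH7. KCNJ16, a potassium channel, was at 0.197, 0.115 and 0.169 CPM against 2.89, 2.75, 2.87 and 3.06 CPM, and PDZRN3, a ubiquitin ligase, at 5.88, 6.08 and 5.38 CPM against 18.9, 21.7, 20.9 and 21.4 CPM. Protocadherin 7, PCDH7, was at 0.0328, 0.0765 and 0.0845 CPM against 2.24, 2.31, 1.82 and 2.39 CPM. With at most 3 counts in any DNMT3A1 library, it was at least 22.1-fold lower than in the knockout, and WT and DNMT3A2-labelled cells had 7.97 ± 0.656 CPM and 27.1 ± 2.05 CPM (SD, n = 4). Since these genes were chosen by their gap, the gap is a description.

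Promoters with few CG dinucleotides were more frequent among the genes with large changes. The 300 bases around the RefSeq start were available for 10776 of 13105 tested coding genes (82.2%), and held a median of 26 CGs. The median was 25 in genes higher and 27 in genes lower in DNMT3A1. Among genes changed by at least 2-fold it was 19 for higher and 13 for lower genes. At most 5 CGs were found in 8.30% of all tested coding promoters, in 23.5% of those 2-fold higher (115 of 489) and in 28.9% of those 2-fold lower (99 of 342). Of 894 genes with 0 to 5 CGs, 12.9% were 2-fold higher and 11.1% 2-fold lower, compared with 3.35% and 1.74% of the 3788 genes with over 30. Promoters with few CGs also belong to genes of narrow expression and low level, whose part in this was not tested, and methylation was not measured in these libraries.

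The range is shown by the promoters of KRT20 and COL4A5, which fell, and of ACSL1, which rose, with each CG in capitals (2, 8 and 47 CGs). They are 300 bases each from RefSeq, 5′ to 3′ on the gene's strand on GRCh38.p14, at chr17:40885193-40885492, minus strand, at chrX:108439588-108439887, plus strand, and at chr4:184825919-184826218, minus strand. The RefSeq start of ACSL1 lies 850 bases inside the gene as the count table delimits it. At least 1 CG is present in 95.8% of the promoters of the table.
KRT20: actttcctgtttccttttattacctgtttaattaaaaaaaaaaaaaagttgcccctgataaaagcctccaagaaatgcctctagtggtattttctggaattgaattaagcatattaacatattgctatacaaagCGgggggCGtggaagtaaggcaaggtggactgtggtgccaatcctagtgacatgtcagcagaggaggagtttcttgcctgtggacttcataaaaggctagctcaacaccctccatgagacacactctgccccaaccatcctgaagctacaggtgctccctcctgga
COL4A5: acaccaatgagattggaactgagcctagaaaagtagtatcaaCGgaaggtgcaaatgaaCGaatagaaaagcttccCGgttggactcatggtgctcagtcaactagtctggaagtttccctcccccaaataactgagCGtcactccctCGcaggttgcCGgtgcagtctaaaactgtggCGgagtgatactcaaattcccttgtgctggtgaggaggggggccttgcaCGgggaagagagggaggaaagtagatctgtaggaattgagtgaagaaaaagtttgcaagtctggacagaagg
ACSL1: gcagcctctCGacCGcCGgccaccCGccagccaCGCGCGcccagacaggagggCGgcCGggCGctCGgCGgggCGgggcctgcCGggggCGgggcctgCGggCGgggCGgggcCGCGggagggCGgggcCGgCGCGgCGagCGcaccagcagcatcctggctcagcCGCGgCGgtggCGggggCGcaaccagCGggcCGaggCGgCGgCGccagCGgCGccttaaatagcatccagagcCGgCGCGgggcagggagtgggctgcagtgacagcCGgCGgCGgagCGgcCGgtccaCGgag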

How the data were processed

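The libraries hold total RNA of Caco-2 cells, sequenced with strand as read pairs of 75 bases. The submitters' processing notes name Trim Galore 0.4.4, STAR 2.5.2b, featureCounts 1.5.2 and GRCh38, and per the file headers the authors counted fragments per gene on the reverse strand. The deposited values were raw counts for 58051 genes, of which 56948 were matched to a symbol. Mouse counts were not used, and groups came from the genotype labels. Each pair of groups was filtered with filterByExpr, scaled by TMM and tested with the quasi-likelihood test of edgeR 4.0.16 in R 4.3.3 (Benjamini-Hochberg adjustment, threshold 0.05). For levels, counts were divided by the TMM-scaled library size. Where every library of a group had at most 3 counts, a bound replaced the fold change. The code was tested on simulated counts.

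Named genes were the DNA methyltransferases, the 12 highest and 12 lowest coding genes with at least 5 CPM in the higher group and no overlap, the 6 most abundant changed by 2-fold or more in each direction, in 45 lists the members past the threshold with the largest changes, and the 5 widest gaps each way. List members without a call, or past larger ones, are named for their role, and some genes that the rule names are not reported here. The members and lists were chosen with earlier results of these data known. Alternatives were DESeq2 1.42.0, other size factors and filters, trends of GC content and length, a lane block, a replicate block and leaving out each library. Same-numbered libraries of DNMT3A1 and ΔDNMT3A did not deviate together (Pearson r -0.10, 0.04 and 0.09), so numbers were not used as pairs. Tables were handled with Python 3.11.15 and pandas 2.3.3.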

Additional observations from a re-analysis of the deposited data

Results flagged for a closer look

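Among 135 genes named in the text, 5 had 1 ΔDNMT3A library far from the other 3, by Dixon's test at the 95% level, which chance gives in about 1 of 20 groups. CDH1 was at 795 CPM in ΔDNMT3A replicate 1, below the others. HERC6 was at 7.34 CPM in ΔDNMT3A replicate 2, below the others. HOXB3 was at 11.3 CPM in ΔDNMT3A replicate 4, below the others. HOXB6 was at 3.45 CPM in ΔDNMT3A replicate 3, above the others. IFI27 was at 17.9 CPM in ΔDNMT3A replicate 3, above the others. Groups of 3 libraries, DNMT3A1 among them, were not tested in this way. Between DNMT3A1 and the libraries labelled DNMT3A2, which were made from the same knockout, 11392 genes passed the threshold in edgeR (68.5% of those tested).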

How the results depend on the processing

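The number of genes called between DNMT3A1 and ΔDNMT3A (10231) was 9218 in DESeq2 (4402 higher, 4816 lower), 10452 with no filter on low counts, 9515 with at least 1 CPM in 3 libraries, 10216 with total counts as the scale, 10385 with a trend of GC content removed (4612 higher, 5773 lower) and 10284 with a trend of length removed (4524 and 5760). Leaving out 1 library gave 9442 to 9998 genes for this comparison, 10903 to 11179 against the libraries labelled DNMT3A2, 10443 to 10801 against WT and 9898 to 10235 for ΔDNMT3A against WT. With a log2 fold change of at least 1 also required, the counts were 1403 (873 higher, 530 lower), 2187 (1525 and 662), 2043 (1301 and 742) and 1418 (787 and 631) in the same order. By that rule, 139 calls were made over the gene lists, against 662. The replicate block gave 10019 of 16802 genes and changed no call of a named gene, and the same numbers did not pair the libraries. Windows of 25 genes ran from -0.55 to 0.74 and windows of 100 genes from -0.40 to 0.54, against -0.51 to 0.65 for 50. The medians of promoter CGs of 25 and 27 became 19 and 13 for changes of at least 2-fold. Of 134 tested named genes, 5 lost their call in some alternative (DNMT3B, HOXB2, HOXB6, SSX1 and VIL1), 1 gained one (DNMT1) and 0 reversed while called. Genes under about 1 CPM rest on few reads and have the widest errors. The fit without chromosomes 5, 13 and 14 was chosen after seeing the data.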

Other observations

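Several other gene groups gave counts near or away from the shares of all genes tested (30.4% higher and 30.3% lower). Drug-metabolising enzymes rose in 13 and fell in 7 of 33 (median log2 fold change 0.09). CYP1A1, the cytochrome induced by aryl hydrocarbons, was at 31.5, 30.04 and 30.9 CPM against 10.6, 10.8, 11.4 and 10.9 CPM (log2 fold change 1.5003, SE 0.051, edgeR adjusted p = 2.83e-15). The glucuronosyltransferase UGT2A3 was at 161, 147 and 172 CPM against 50.6, 47.1, 49.2 and 54.9 CPM (log2 fold change 1.67, SE 0.05, edgeR adjusted p = 5.02e-16). ABCB1, the efflux pump P-glycoprotein, fell from 465 to 252 CPM (log2 fold change -0.88, SE 0.037, edgeR adjusted p = 8.95e-14), within a list of efflux transporters with 4 higher and 5 lower of 10 (median 0.01). NRF2 targets gave 9 higher and 10 lower of 24 (median -0.04), and HMOX1, heme oxygenase 1, fell from 119.8 to 69.6 CPM (log2 fold change -0.78, SE 0.041, edgeR adjusted p = 2.75e-12). Cholesterol synthesis genes gave 7 higher and 13 lower of 29 (median -0.05), glycolysis and hypoxia genes 7 and 10 of 26 (-0.05, with 4 higher without DNMT3A1 replicate 4), cytosolic ribosomal proteins 7 and 15 of 41 (-0.04, with 4 higher once a trend of GC content was removed), p53 targets 8 and 8 of 19 (0.07), and genes of protein kinase A 2 and 7 of 12 (-0.22).

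Genes often described as controlled by DNA methylation moved by member. Imprinted genes gave 7 higher and 3 lower of 12 (median 0.23). CDKN1C, an inhibitor of the cell cycle expressed from the maternal allele, was at 8.01, 7.08 and 8.28 CPM against 35.4, 32.6, 35.2 and 34.4 CPM (log2 fold change -2.13, SE 0.061, edgeR adjusted p = 2.47e-16), on chromosome 11 with a neighbour median of 0.31. Of 24 germline genes, 4 were tested, 3 higher and 1 lower, and HORMAD2, a protein of meiotic chromosomes, was at 0.985, 1.11 and 0.901 CPM against 0.119, 0, 0.203 and 0.0664 CPM (log2 fold change 3.32, SE 0.41, edgeR adjusted p = 6.92e-07). Of 31 cancer-testis genes of the X chromosome, only SSX1 passed the filter on low counts, and it rose from 0.219 to 0.484 CPM (log2 fold change 1.12, SE 0.35, edgeR adjusted p = 0.01), a call that was lost in DESeq2 and without DNMT3A1 replicate 2 (log2 fold change 0.81). HORMAD2 and SSX1 were so low in ΔDNMT3A that they could pass this filter only with the DNMT3A1 libraries. A rise was therefore the outcome open to them, and it does not describe their lists. HOX genes gave 11 higher and 6 lower of 30 (median 0.17), with HOXC12, HOXC11 and HOXC10 the largest rises and HOXB3, HOXB2 and HOXB6 the largest falls. HOXC12 was at 5.38, 4.78 and 4.93 CPM against 2.51, 1.83, 1.82 and 1.20 CPM (log2 fold change 1.42, SE 0.16, edgeR adjusted p = 1.97e-07), and HOXB3 fell from 12.1 to 5.92 CPM (log2 fold change -1.04, SE 0.076, edgeR adjusted p = 3.91e-10). Zinc finger genes of chromosome 19 gave 16 higher and 2 lower of 30 (median 0.23). ZNF528 was at 0.0328, 0 and 0.0282 CPM against 0.812, 0.592, 0.642 and 0.863 CPM, at least 7.33-fold lower against a floor of 3 counts per library.

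Goblet and mucus genes gave 5 higher and 2 lower of 12 (median 0.25), enteroendocrine genes 1 and 2 of 7 (-0.18), adherens junction and desmosome genes 9 and 5 of 20 (0.02, with 8 lower once a trend of length was removed), and EGF receptors and ligands 4 and 2 of 7 (0.17). The receptor ERBB3 rose from 67.9 to 143 CPM (log2 fold change 1.07, SE 0.04, edgeR adjusted p = 1.10e-14), and its family's ligand EREG fell from 112 to 48.2 CPM (log2 fold change -1.22, SE 0.039, edgeR adjusted p = 1.29e-15). LYZ, lysozyme, which Paneth cells secrete as white blood cells do, fell from 15.4 to 4.34 CPM (log2 fold change -1.82, SE 0.09, edgeR adjusted p = 1.07e-12).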
